A study of Mus musculus with 6 samples.

Results

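The genes of MHC class II antigen presentation were followed in mouse T cell cultures restimulated with or without ICOS, an inducible costimulatory receptor of T cells. The set holds 8 of the 19937 genes measured, taken by name: the class II chains H2-Aa, H2-Ab1 and H2-Eb1, the invariant chain Cd74, the peptide editors H2-DMa, H2-Oa and H2-Ob, and the transactivator Ciita. Naive CD4+ cells from B6 mouse spleen first received anti-CD3 and anti-CD28 for 2 days and then a night of rest. In 2 cultures the cells were then coated for 20 min with antibodies to CD3 and ICOS together, and in 4 cultures with antibody to CD3 alone, and in all 6 a goat antibody against hamster immunoglobulin then cross-linked them for 8 h. Every culture was thus restimulated through CD3, and no unstimulated group entered the comparison. Each culture filled 1 Affymetrix Mouse Gene ST array. The labels speak of biological replicates but name no separate mice, and a p-value here reflects array-to-array spread, which may be technical.

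MHC class II molecules are pairs of an alpha and a beta chain that carry peptides of endosomal origin to the cell surface, where CD4+ T cells recognise them. The invariant chain guides new pairs to the endosome and blocks their groove, the DM editor exchanges its last fragment for peptide, and the DO editor holds DM back, mainly in B cells. Dendritic cells, macrophages and B cells express these genes under the transactivator CIITA, whereas mouse T cells, unlike activated human T cells, are known for making little or none. B6 mice carry an inactive H2-Ea gene, so that the H2-Eb1 chain has no partner at their cell surface.

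CIITA binds no DNA itself but acts through factors bound to paired X and Y boxes upstream of class II genes, and the stretches below show that shared layout in the members for which it was found. They are from RefSeq on GRCm38.p6, whose table matched 5 of the 8 members, and are written 5′ to 3′ on the coding strand. Capitals mark the letters GCAAC, which lie within the X box, and TGATTGG, the core of the Y box. The letters were chosen after these sequences had been seen.
H2-Aa: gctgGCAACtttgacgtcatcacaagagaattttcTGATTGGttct
H2-Eb1: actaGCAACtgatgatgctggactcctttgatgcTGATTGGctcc
H2-Oa: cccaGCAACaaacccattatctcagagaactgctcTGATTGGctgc
H2-Ob: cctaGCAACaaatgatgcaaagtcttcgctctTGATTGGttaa

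The H2-Aa stretch is chr17:34287863-34287908 on the minus strand. On the plus strand the H2-Eb1 stretch is chr17:34305772-34305816, the H2-Oa stretch chr17:34092299-34092344 and the H2-Ob stretch chr17:34238814-34238856. The gap between the motifs was 26 bases in H2-Aa and H2-Oa, 25 in H2-Eb1 and 23 in H2-Ob, and the Y core ended 38 to 54 bases before the start site. The search covered 250 bases before to 50 after each start, on both strands, and the motifs share no overlapping letters. GCAAC alone was found in 35.2% of 32851 such windows and TGATTGG alone in 7.82%, whereas GCAAC followed by TGATTGG within 50 bases on 1 strand was found in 0.438%. Neither of the 2 H2-DMa windows held the pair, and H2-Ab1, Ciita and Cd74 had no window in the table. A match of letters is a description and not a binding site.

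The arrays were compared with their labels first. Cd4 itself read 11.95 and 12.00 with anti-ICOS, against 12.45, 12.42, 12.32 and 12.05 in anti-CD3 replicates 1 to 4. Both anti-ICOS arrays lay below every anti-CD3 array, as in 14.7% of all genes. The difference was -0.33 ± 0.12 (SE, limma adjusted p = 0.417). The CD3 chain genes Cd3e, Cd3d and Cd3g, which mark CD4+ and CD8+ T cells alike, read 12.40 and 12.43, 11.09 and 11.15, and 11.94 and 12.04 on the log2 scale with anti-ICOS. In the anti-CD3 cultures they read 12.45 to 12.81, 11.07 to 11.24 and 11.91 to 12.07. All values are log2(intensity + 16). B cell markers were also bright on all 6 arrays: Ms4a1, which encodes CD20, read 11.67 and 11.80 with anti-ICOS and 11.36 to 11.81 with anti-CD3. Cd79b, a signalling chain of the B cell receptor, read 12.58 and 12.70 with anti-ICOS and 12.31 to 12.66 with anti-CD3, and its partner Cd79a 12.10 and 12.25 with anti-ICOS and 12.18 to 12.35 with anti-CD3. Cd8a and Cd8b1, which CD4+ cells should lack, read 10.12 and 10.25, and 11.67 and 11.70, with anti-ICOS, against 9.98 to 10.32 and 11.49 to 11.76 with anti-CD3. Array medians lay between 109 and 114 in intensity and 75th percentiles between 370.0 on anti-CD3 replicate 3 and 435 on anti-CD3 replicate 4. The share of all genes that passed the test depended on anti-CD3 replicate 4, as given below, so counts for members and lists are also given without it.

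The class II genes gave strong signals on every array and differed little between the treatments. None of the 8 passed the test with all 6 arrays (limma with Benjamini-Hochberg adjustment over all genes, threshold 0.05), beside 0.271% of all genes, and none reached an unadjusted p under 0.05, beside 11.8% of all genes. The 95% interval of the difference lay within 1.5-fold in either direction for 8 of 8. The share of all genes with such an interval was not counted. The log2 differences, with anti-ICOS minus without, ran from -0.066 for Cd74 to 0.24 for Ciita, with a median of 0.093 against -0.031 over all genes. An absolute difference no larger than that of Ciita was measured for 78.7% of all genes, so small differences were common. Because probes differ in brightness, levels are compared between arrays and not between genes. In bulk RNA a smaller number of class II expressing cells and less class II RNA per cell cannot be told apart.

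**Figure D1:**
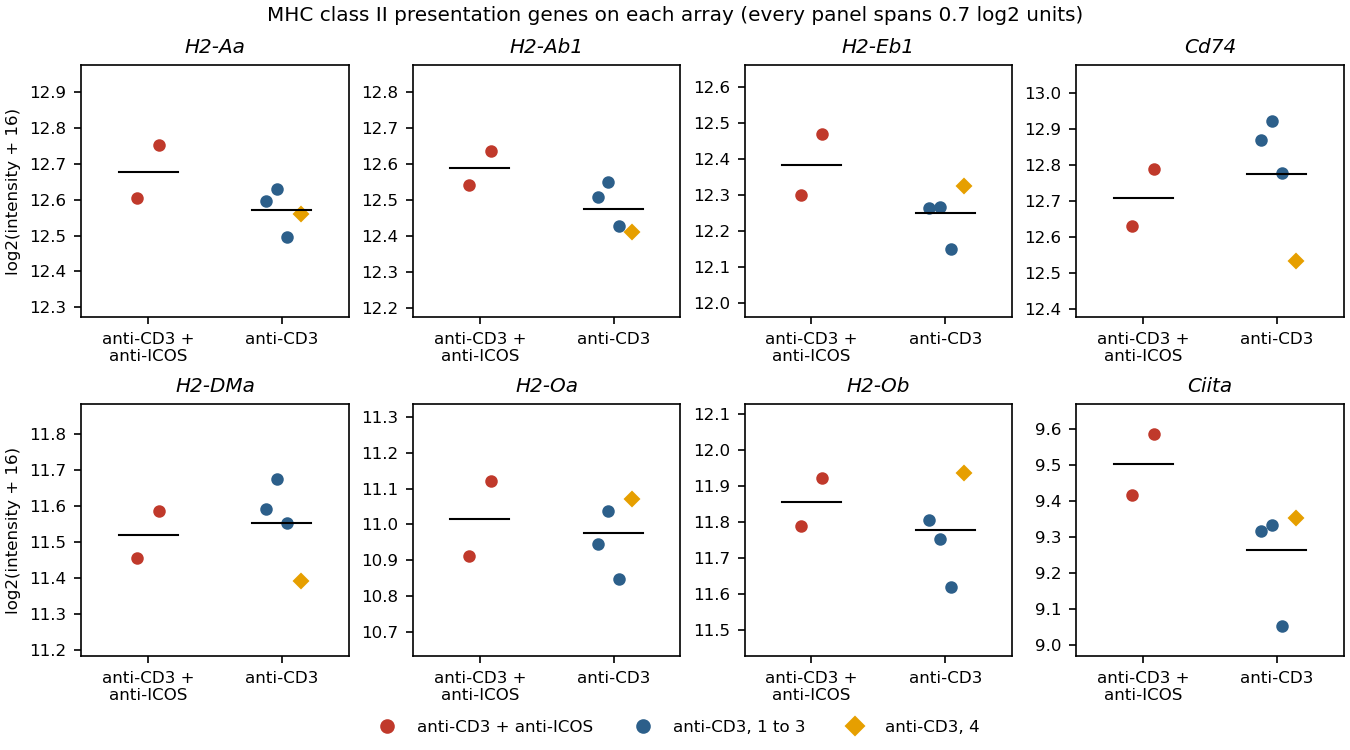
Level of each of the 8 genes on each array, as log2(intensity + 16), with 2 anti-CD3 plus anti-ICOS arrays on the left and 4 anti-CD3 arrays on the right of each panel; black lines are group means and the diamond is anti-CD3 replicate 4. The groups overlap in 7 panels, and in the Ciita panel both anti-ICOS points (9.42 and 9.59) lie above the 4 anti-CD3 points.

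H2-Aa, the alpha chain of the I-A molecule, read 12.60 and 12.75 with anti-ICOS, against 12.60, 12.63, 12.49 and 12.56 in anti-CD3 replicates 1 to 4. Its second anti-ICOS array was the highest of the 6 and the first lay among the anti-CD3 arrays. The means were 12.68 ± 0.10 (SD, n = 2) with anti-ICOS and 12.57 ± 0.057 (SD, n = 4) with anti-CD3, a difference of 0.11 ± 0.078 (SE, limma adjusted p = 0.483) with a 95% interval of -0.076 to 0.29.

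H2-Ab1, the beta chain of I-A, read 12.54 and 12.64 with anti-ICOS, against 12.51, 12.55, 12.43 and 12.41 in anti-CD3 replicates 1 to 4. The groups overlapped, since anti-CD3 replicate 2 read above the first anti-ICOS array. The difference was 0.11 ± 0.076 (SE, limma adjusted p = 0.462), with an interval of -0.065 to 0.29. The alpha and beta chains of I-A thus gave similar small differences, 7.79% and 8.22% on the linear scale, neither larger than the spread allows to be called.

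H2-Eb1, the beta chain of the I-E molecule, read 12.30 and 12.47 with anti-ICOS, against 12.26, 12.27, 12.15 and 12.32 in anti-CD3 replicates 1 to 4. Replicate 4 read above the first anti-ICOS array, so the groups overlapped. The difference was 0.13 ± 0.085 (SE, limma adjusted p = 0.451), with an interval of -0.066 to 0.33. H2-Ea, the I-E alpha gene that B6 mice carry in inactive form, was dim on all arrays at 5.52 and 5.47 with anti-ICOS and 5.43 to 5.60 with anti-CD3.

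Cd74, the invariant chain, was the member with the lowest difference. It read 12.63 and 12.79 with anti-ICOS, against 12.87, 12.92, 12.78 and 12.53 in anti-CD3 replicates 1 to 4. Replicate 4 was the lowest of the 6 arrays, 0.32 below the mean of replicates 1 to 3, and both anti-ICOS arrays read above it. The difference over all arrays was -0.066 ± 0.12 (SE, limma adjusted p = 0.765), with an interval of -0.35 to 0.22. Without replicate 4 it was -0.15 (limma adjusted p = 0.181), and against replicate 4 alone it was 0.18.

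H2-DMa, the alpha chain of the DM editor, was like Cd74 lowest on replicate 4. It read 11.45 and 11.59 with anti-ICOS, against 11.59, 11.67, 11.55 and 11.39 in anti-CD3 replicates 1 to 4. The difference was -0.032 ± 0.097 (SE, limma adjusted p = 0.863), with an interval of -0.26 to 0.20, and its direction turned to 0.13 against replicate 4 alone. Replicate 4 lay below all of replicates 1 to 3 for Cd74, H2-DMa and H2-Ab1.

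The DO editor behaved otherwise in replicate 4. H2-Oa, its alpha chain, read 10.91 and 11.12 with anti-ICOS, against 10.94, 11.04, 10.85 and 11.07 in anti-CD3 replicates 1 to 4, and H2-Ob, its beta chain, read 11.79 and 11.92 with anti-ICOS, against 11.81, 11.75, 11.62 and 11.94. The anti-ICOS arrays lay within or just above the anti-CD3 range for both chains. The differences were 0.041 ± 0.097 for H2-Oa and 0.078 ± 0.10 for H2-Ob (SE, limma adjusted p = 0.819 and 0.669), and against replicate 4 alone they were -0.055 and -0.079. Replicate 4 lay above all of replicates 1 to 3 in 4 members, H2-Oa, H2-Ob, H2-Eb1 and Ciita, by 0.13, 0.21, 0.098 and 0.12 relative to their mean. The share of all genes with replicate 4 above or below all of replicates 1 to 3 was not counted. Its median absolute distance from their mean was 0.12 in the members and 0.18 over all genes.

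Ciita, the master transactivator of these genes, gave the largest difference of the 8. It read 9.42 and 9.59 with anti-ICOS, against 9.32, 9.33, 9.05 and 9.35 in anti-CD3 replicates 1 to 4. No anti-CD3 array reached either anti-ICOS array, a pattern that 8.51% of all genes and, of the 8 members, 1 shared. Replicate 3 lay apart at the low end of the anti-CD3 group. The means were 9.50 ± 0.12 (SD, n = 2) with anti-ICOS and 9.26 ± 0.14 (SD, n = 4) with anti-CD3, a difference of 0.24 ± 0.11 (SE, limma adjusted p = 0.423) with an interval of -0.018 to 0.49. That interval reaches from 1.21% lower to 40.9% higher on the linear scale. The gene has several promoters used in different cells, which its 1 value does not separate.

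Leaving out anti-CD3 replicate 4 brought no member past the test, while 29.7% of all genes then passed, 17.1% higher and 12.7% lower with anti-ICOS. Ciita came nearest, at 0.27 with an adjusted p of 0.0821 by limma, and the other members had adjusted p-values between 0.154 and 0.544. With array quality weights 1 of 8 members passed, Ciita at 0.20 (limma adjusted p = 0.0347), beside 47.2% of all genes. With replicate 4 as the only anti-CD3 reference 0 of 8 passed, beside 0.176% of all genes. Adding replicate number as a block brought no member past the test, beside 32.9% of all genes. A share out of 8 members is too coarse to be set against the share of all genes.

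**Figure D2:**
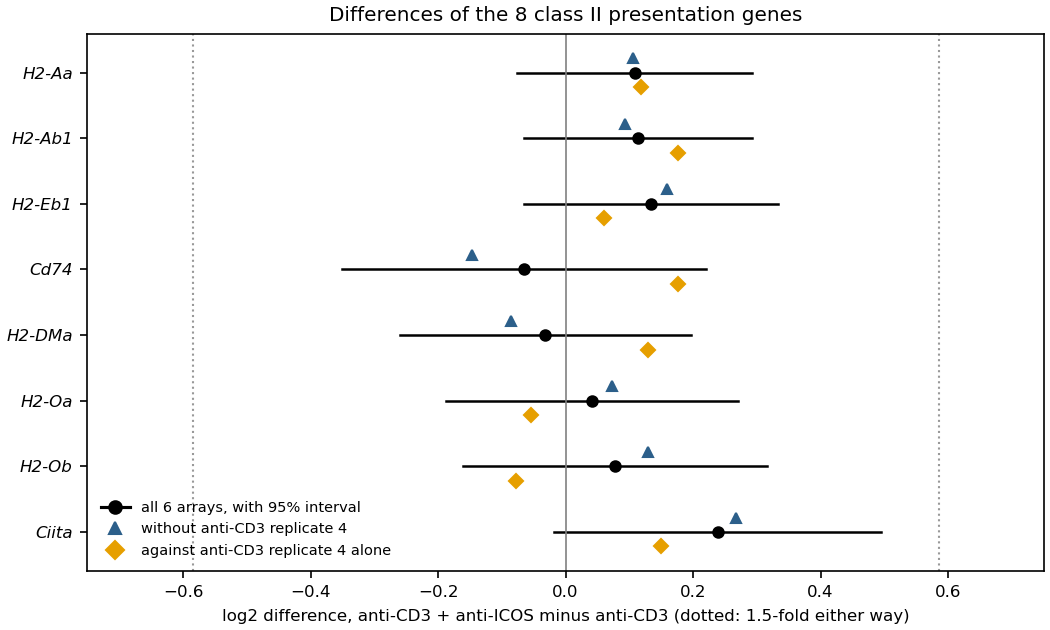
Log2 difference of each member, with anti-ICOS minus without, from all 6 arrays (circle with its 95% interval), without anti-CD3 replicate 4 (triangle) and against that replicate alone (diamond). Every interval includes 0 and stays inside the dotted lines at 1.5-fold; Cd74, H2-DMa, H2-Oa and H2-Ob change side between triangle and diamond.

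Members also differed between arrays of 1 group. Anti-ICOS replicate 2 read above anti-ICOS replicate 1 in 8 of 8 members, as in 55.5% of all genes. The gap in the members was 0.096 to 0.21 with a median of 0.15, against a median of 0.012 over all genes. Anti-CD3 replicate 3 read below both replicates 1 and 2 in 8 of 8 members, as in 46.1% of all genes, and it was the lowest of all 6 arrays for 5 members. Anti-ICOS replicate 2 was the highest of the 6 arrays for 5 members. The share of all genes was not counted for these lowest and highest arrays. H2-Aa lay nearest to the median profile of the 8, with a root mean square distance of 0.015 over the 6 arrays, and Cd74 farthest at 0.14. The 5 genes outside the set nearest to that profile were Arrb2, Rxrb, Tma7, Trmt2a and Cd2, at 0.019 to 0.023. Of all genes, members included, 9970 lay no farther from the profile than Cd74, so lying within that distance is common. The 5 nearest to Ciita were Snn, Rbpms, Fdxacb1, Bcl11a and Net1, at 0.027 to 0.037.

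The remaining genes of the pathway were taken from 6 lists with 65 measured genes. None passed the test over all genes with 6 arrays. H2-Eb2, the other class II beta gene measured, read 9.68 and 9.94 with anti-ICOS and 9.44 to 9.77 with anti-CD3, a difference of 0.19 ± 0.12 (SE, limma adjusted p = 0.444). The probe set of H2-DMb1 also detects H2-DMb2, so neither is reported. With all arrays the lists of lysosomal enzymes, regulators and surface partners had medians of 0.24, 0.21 and 0.41, against 0.093 for the 8 class II genes. Against replicate 4 alone the medians were 0.063, -0.013 and 0.37, against 0.12 for the class II genes, so the order held for the surface list and turned for the other two.

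In lysosomal antigen processing 0 of 14 genes passed with all arrays, and 8 rose and 0 fell without replicate 4, where 17.1% of all genes rose. Ifi30, the thiol reductase GILT that unfolds endocytosed antigen, read 11.01 and 11.32 with anti-ICOS, against 10.56, 10.63, 10.50 and 10.40 with anti-CD3. All anti-CD3 arrays lay below both anti-ICOS arrays, as in 8.51% of all genes. Replicate 4 was the lowest. The difference was 0.64 ± 0.11 (SE, limma adjusted p = 0.118). Lgmn, the protease legumain, read 9.22 and 9.60 with anti-ICOS and 8.35 to 8.97 with anti-CD3, and differed by 0.71 ± 0.18 (SE, limma adjusted p = 0.341). The cathepsin gene Ctsz read 11.25 and 11.29 with anti-ICOS and 10.77 to 10.97 with anti-CD3, and differed by 0.38 ± 0.082 (SE, limma adjusted p = 0.223). These 3 genes passed without replicate 4 (limma adjusted p = 0.00419, 0.00671 and 0.0115).

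Among factors that regulate Ciita or bind class II promoters 0 of 16 passed with all arrays. Without replicate 4, 9 rose and 0 fell, beside 17.1% and 12.7% of all genes. Prdm1, whose product Blimp-1 represses Ciita in plasma cells, read 8.49 and 8.20 with anti-ICOS, against 7.42, 7.42, 7.31 and 7.69 with anti-CD3, a difference of 0.89 ± 0.13 (SE, limma adjusted p = 0.0671). Its groups did not overlap, and it passed in 5 of 17 alternatives, with limma adjusted p from 0.000185 to 0.547. Spi1, which encodes PU.1 of myeloid and B cells, read 9.41 and 9.25 with anti-ICOS and 8.40 to 8.83 with anti-CD3, a difference of 0.67 ± 0.13 (limma adjusted p = 0.157), and Irf4 differed by 0.29 ± 0.084 (limma adjusted p = 0.414). Without replicate 4 Prdm1, Spi1 and Irf4 rose by 0.97, 0.72 and 0.27 (limma adjusted p = 0.000464, 0.00291 and 0.0396).

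Interferon-gamma, which induces Ciita in many cells, is encoded by Ifng, and the gene read 8.76 and 8.37 with anti-ICOS, against 6.84, 7.05, 6.81 and 8.02 in anti-CD3 replicates 1 to 4. Replicate 4 lay nearer to the anti-ICOS arrays than to its own group. The difference was 1.39 ± 0.34 (SE, limma adjusted p = 0.327) with all arrays. It was 1.67 without replicate 4 (limma adjusted p = 0.000163) and 0.55 against replicate 4 alone. Socs1, an inhibitor induced by the same receptor, differed by 0.85 ± 0.17 and the receptor kinase gene Jak2 by 0.25 ± 0.068 (SE, limma adjusted p = 0.185 and 0.389), and both rose without replicate 4, by 0.98 and 0.26 (limma adjusted p = 0.000209 and 0.0233). Of 7 genes on this list 0 passed with all arrays and 4 rose without replicate 4, beside 17.1% of all genes. The median of the list was 0.23 with all arrays. Beside this list Ciita differed by 0.24 and the median class II member by 0.093.

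Genes of class II surface turnover and costimulation had the largest list median, 0.41, with 0 of 10 past the test with all arrays. Without replicate 4, 8 rose and 1 fell, beside 17.1% and 12.7% of all genes. Cd83, which keeps class II and CD86 at the surface, read 10.83 and 10.80 with anti-ICOS and 9.91 to 10.35 with anti-CD3, a difference of 0.68 ± 0.12 (SE, limma adjusted p = 0.141). Cd80, a ligand of CD28, read 9.62 and 9.62 with anti-ICOS and 8.89 to 9.24 with anti-CD3, a difference of 0.53 ± 0.10 (SE, limma adjusted p = 0.162). Cd63, a tetraspanin of the compartments where class II is loaded, read 6.48 and 7.54 with anti-ICOS and 5.25 to 5.82 with anti-CD3, a difference of 1.48 ± 0.29 (SE, limma adjusted p = 0.174). Its anti-CD3 readings were about as dim as those of H2-Ea. Without replicate 4 Cd83, Cd80 and Cd63 rose by 0.75, 0.58 and 1.45 (limma adjusted p = 0.0011, 0.00239 and 0.00913).

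For class I presentation, which displays peptides of the cell's own proteins, 0 of 16 genes passed with all arrays, with a median of 0.14. Without replicate 4, 6 rose and 0 fell, beside 17.1% and 12.7% of all genes. Nlrc5, the class I counterpart of Ciita, differed by 0.26 ± 0.10 (limma adjusted p = 0.417). The immunoproteasome gene Psmb10 and the proteasome activator gene Psme2 differed by 0.24 ± 0.086 and 0.26 ± 0.10 (limma adjusted p = 0.417 and 0.420). Without replicate 4 Nlrc5, Psmb10 and Psme2 rose by 0.33, 0.28 and 0.33 (limma adjusted p = 0.0152, 0.0250 and 0.0152).

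**Figure D3:**
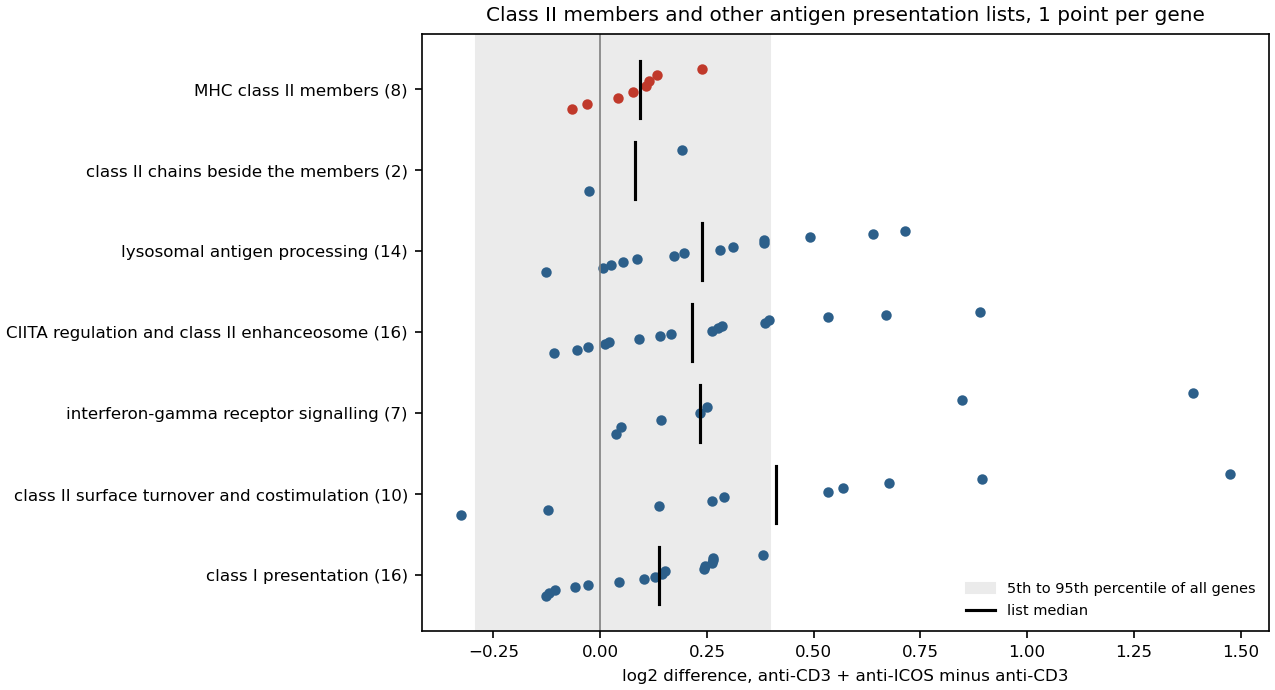
Log2 difference of each measured gene, with anti-ICOS minus without, for the 8 class II genes (top) and 6 lists of related genes, with the list median as a black line and the 5th to 95th percentile of all genes (-0.29 to 0.40) in grey. All 8 class II genes lie inside the grey band, while Cd63 at 1.48 and Ifng at 1.39 lie farthest to the right. Cd63 was dim on the anti-CD3 arrays.

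Markers of the cells that usually carry class II were set beside the members, and their part in the results was not tested. The summed intensity of 13 B cell markers was 25371 and 27990.2 with anti-ICOS, against 22124 to 27996 with anti-CD3, so the groups overlapped. The mean of the B cell list and that of the class II members were both lowest on anti-CD3 replicate 3, at -0.25 and -0.12 relative to their means over 6 arrays. That array was also lowest for the lysosomal (-0.24), surface (-0.27), class I (-0.15), CD8+ T cell (-0.14) and NK cell (-0.28) lists, among others. It was not lowest for the CD4+ T cell, dendritic cell and monocyte lists. Its 75th percentile of intensity was the lowest of the 6 arrays, at 370, while its median was the highest, at 114. The low was thus shared by several lists, and its cause was not tested. On anti-ICOS replicate 2 the B cell list and the class II members stood at 0.16 and 0.13, and on anti-CD3 replicate 4 at 0.18 and -0.033. None of the 13 passed with all arrays, and 7 rose and 1 fell without replicate 4, beside 17.1% and 12.7% of all genes. The median difference of the B cell list was 0.19 with all arrays and -0.071 against replicate 4 alone.

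Of 13 dendritic cell markers 2 rose with all arrays, Flt3 and Sirpa, beside 0.271% of all genes. Without replicate 4, 5 rose and 1 fell, beside 17.1% and 12.7% of all genes. The median difference of the list was 0.18. Flt3, a cytokine receptor of dendritic cells and their precursors, read 8.05 and 8.26 with anti-ICOS and 6.86 to 6.997 with anti-CD3, a difference of 1.26 ± 0.087 (SE, limma adjusted p = 0.00321). Sirpa, found on dendritic and myeloid cells, rose by 1.25 ± 0.12 (SE, limma adjusted p = 0.00900), and it no longer passed when any array but anti-CD3 replicate 4 was left out (limma adjusted p up to 0.127). Itgax, which encodes CD11c, differed by 0.87 ± 0.25 (limma adjusted p = 0.411), and Zbtb46, a factor of conventional dendritic cells, by 0.34 ± 0.078 (limma adjusted p = 0.283), and both passed without replicate 4 (limma adjusted p = 0.000376 and 0.00707). Differences below 0 were measured for Xcr1 (-0.19), Ccr7 (-0.16) and Cadm1 (-0.015). For Xcr1 both anti-ICOS arrays lay below all anti-CD3 arrays, as in 14.7% of all genes. Sirpa, Xcr1, Ccr7 and Cadm1 are named here after their values were seen. The summed intensity of the list was 7781 and 8374 with anti-ICOS and 6672 to 8909 with anti-CD3, and none of its genes was at 0. Ccr7, which T cells also express, was bright at 12.41 and 12.54 with anti-ICOS and 12.26 to 12.84 with anti-CD3 and weighs most in that sum. The list's mean log2 level, in which each gene counts alike, was 7.63 and 7.63 with anti-ICOS and 7.26 to 7.31 with anti-CD3, so by that measure the groups did not overlap. This was not particular to dendritic cell markers. By that measure the lysosomal, regulator, interferon-gamma, surface, class I, monocyte and NK cell lists also read higher on both anti-ICOS arrays than on every anti-CD3 array. The CD4+ T cell list read lower on both, and the class II members, B cell and CD8+ T cell lists overlapped.

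Of 11 monocyte and macrophage markers 0 passed with all arrays and 6 rose without replicate 4, beside 17.1% of all genes. The summed intensity of these markers was 2052 and 2644 with anti-ICOS, against 1289 to 1869.9 with anti-CD3, the highest being replicate 4. Lyz2, the lysozyme of myeloid cells, differed by 1.89 ± 0.58, Csf1r by 0.47 ± 0.097 and Cd14 by 0.25 ± 0.14 (SE, limma adjusted p = 0.414, 0.200 and 0.436). Lyz2 read 8.47 and 9.67 with anti-ICOS, and anti-CD3 replicate 4, at 8.53, lay above the first of these. Of the 11 markers 9 had differences above 0 and 2 below, Fcgr1 (-0.10) and C1qa (-0.064). Without replicate 4 Lyz2 rose by 2.34 and Csf1r by 0.43 (limma adjusted p = 0.00116 and 0.00866). The summed CD4+ T cell markers were 34723 and 35973 with anti-ICOS and 37369 to 41428 with anti-CD3, with 0 of 11 past the test. Without replicate 4, 4 of them fell, beside 12.7% of all genes. NK cell markers summed to 3957 and 3936 with anti-ICOS and 2778 to 3885 with anti-CD3, with 0 of 8 past the test. Without replicate 4, 6 of them rose, beside 17.1% of all genes. Ncr1, Klrb1c and Klrk1 on the NK cell list differed by 0.75, 0.32 and 0.33 (limma adjusted p = 0.0514, 0.389 and 0.445). Ncr1 passed in 8 of 16 alternatives, with limma adjusted p down to 0.000185, and did not pass in the others. Among those 8 were array weights, the replicate block and the fit without replicate 4, under which 47.2%, 32.9% and 29.7% of all genes passed. With anti-CD3, Ncr1 read 5.60 to 5.86 and Klrb1c 5.46 to 5.71, about as dim as H2-Ea.

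**Figure D4:**
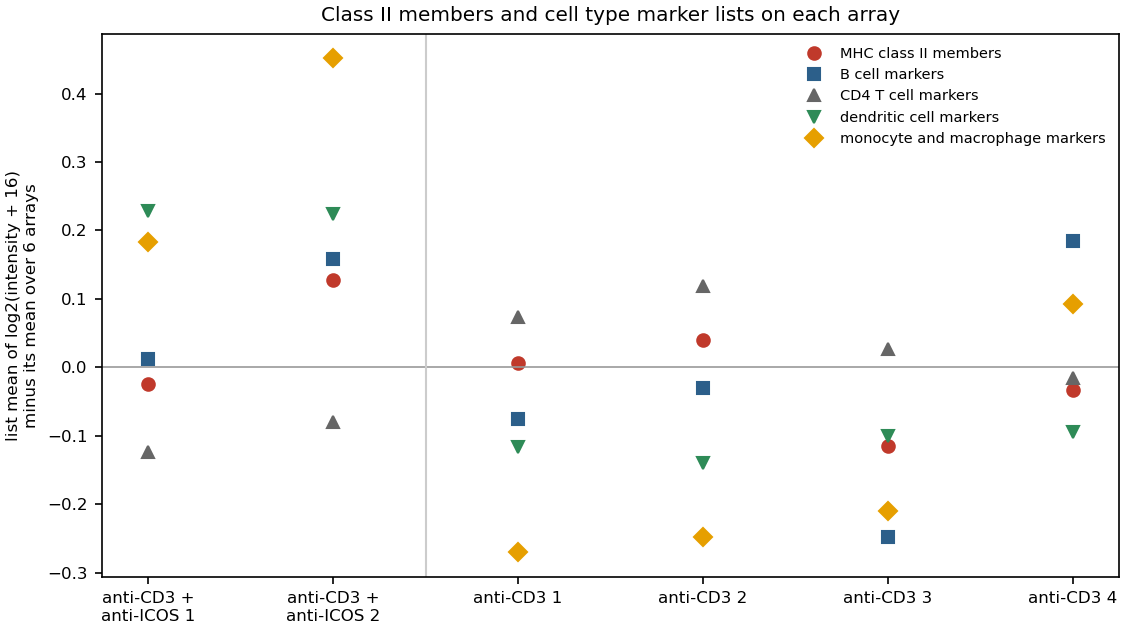
Mean log2(intensity + 16) of the 8 class II genes and of 4 marker lists on each array, less the mean of the same list over the 6 arrays, with the 2 anti-CD3 plus anti-ICOS arrays at the left. Class II genes range from -0.12 to 0.13 and are lowest on anti-CD3 replicate 3, as are B cell markers at -0.25 and several lists not drawn here. Monocyte and macrophage markers reach 0.45 on anti-ICOS replicate 2.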

How the data were processed

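The deposited values are the authors' normalized intensities, not yet logged, from 7.23 to 22176 over 34760 probe sets. The submitters' processing notes name MAS5. How the arrays were normalized is not given in the sources used here, and a shift shared by most genes may have been removed. A single symbol was held by 21640 probe sets, several by 1321 and none here by 11799. The brightest probe set stood for a gene, and each member had 1. H2-DMb1 and H2-K1 share probe sets with other genes and were left out. No dim genes were removed. A linear model in limma 3.58.1 (R 4.3.3, lmFit then eBayes) was fitted to log2(intensity + 16) of 19937 genes, with 4 residual degrees of freedom and two-sided p-values adjusted by Benjamini-Hochberg. Precision is limited by the number of arrays.

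The members and lists were chosen with earlier results of these data known, so no list was tested as a set. The genes named are the 8 members, the 3 of smallest p in each pathway list, the first 3 measured markers of each cell type and the 5 nearest to the members' profile and to Ciita. Cd4, Sirpa, Xcr1, Ccr7, Cadm1, Fcgr1 and C1qa were added after their values were seen. The fit was tested on simulated data. Alternatives changed the normalization (quantile, median), the low-signal filter (dimmest 40% dropped), the prior (trended, robust), the array weights, the choice of probe set, the offset (1, 64), the threshold (0.1) and the anti-CD3 arrays used, added replicate number as a block, or left out each array. Plots were drawn with matplotlib 3.10.9.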

Additional observations from a re-analysis of the deposited data

Results flagged for a closer look

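Among 55 values of the anti-CD3 group examined for an array far from the other 3, 4 passed Dixon's limit at the 95% level, and chance passes about 1 in 20 groups of this size. A class II member was among them, Ciita, which read 9.05 on anti-CD3 replicate 3 against 9.32 to 9.35 on the other anti-CD3 arrays. The other 3 were set by anti-CD3 replicate 4. Lyz2 read 8.53 there against 6.70 to 6.77, the summed intensity of the interferon-gamma receptor signalling list was 17556 against 15355 to 15516, and that of the monocyte and macrophage markers was 1869.9 against 1289 to 1348.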

How the results depend on the processing

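The count of 0 class II members past the test held under every alternative but array quality weights, which gave 1, Ciita. The count over all genes was 54, and it was 9413 with array weights, 28 with an offset of 64, 35 against anti-CD3 replicate 4 alone, 85 at a threshold of 0.1 and 16 to 5930 with each array left out, highest without anti-CD3 replicate 4. With the replicate block the count of members stayed at 0 and that of all genes was 6551. In that fit anti-CD3 replicates 3 and 4 have no same-numbered anti-ICOS array, so the difference rests on replicates 1 and 2 of each group. Whether replicate numbers pair the arrays could not be told. Deviations of same-numbered arrays correlated at -0.039 and 0.10 across genes. With 2 anti-ICOS arrays the deviations mirror each other, so crossed pairs give the same values with the sign turned (0.039 and -0.10). The median member difference stayed between 0.023 and 0.15. H2-Aa, H2-Ab1, H2-Eb1 and Ciita kept their direction under the 17 alternatives. Against replicate 4 alone the sign turned for Cd74 (0.18), H2-DMa (0.13), H2-Oa (-0.055), H2-Ob (-0.079), H2-Ea (0.061), Cd8a (-0.13), Cd8b1 (-0.070), Ms4a1 (-0.071), Cd79b (-0.016) and Klrk1 (-0.15). Without anti-ICOS replicate 1 it turned for Cd74 (0.013), H2-DMa (0.035) and Cd3g (0.041), without anti-ICOS replicate 2 for H2-Oa (-0.063), without anti-CD3 replicate 2 for H2-DMa (0.0093) and Cd3g (0.0055), and without anti-CD3 replicate 3 for H2-Oa (-0.0010). Cd3g also turned with quantile normalization (0.0045), array weights (0.013) and without anti-CD3 replicate 4 (0.015). With each array left out in turn, H2-DMa ran between -0.098 and 0.035 and Cd3g between -0.061 and 0.041. The cause was not tested. With 2 anti-ICOS arrays, leaving 1 out assumes that the other varies like the anti-CD3 group.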
